A study of Mus musculus with 8 samples.

Results

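The mitochondrial genome of the mouse is annotated with 37 genes, and these were taken from the 55536 genes in the count table of each library as the rows whose Ensembl identifier maps to the mitochondrial chromosome (GRCm38, Ensembl release 96). They were 13 mRNAs, 2 rRNAs and 22 tRNAs, of which 28 are transcripts of the heavy strand and 9 of the light strand. RNA came from lymph node CD8+ T cells of OT-I mice on a Rag-1 knockout C57BL/6 background, whose T cells share a transgenic receptor that recognises SIINFEKL, a peptide of ovalbumin. The cells were first cultured with the peptide (100 nM, 2 days) and then, without it, with IL-2 (20 ng/mL, a further 2 days). During these last 2 days, 4 libraries received the vehicle, dilute acetic acid (Mock), and 4 received 10 µM GC7 (GC7). GC7 is a spermidine derivative that blocks deoxyhypusine synthase, the enzyme that begins the hypusine modification of the translation factor eIF5a, and effects of the drug outside this pathway cannot be told apart in this comparison. Per the study's methods, donors were 5 to 12 weeks old and of randomised sex.

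Mitochondrial DNA is a small circle that encodes core subunits of 4 respiratory chain complexes and the rRNAs and tRNAs used to translate them inside the organelle. Both strands are transcribed into long precursors by a dedicated polymerase, and excision of the tRNAs, which lie between most other genes, releases the mRNAs and rRNAs. All other subunits, and all proteins that copy, transcribe, process and translate this genome, are encoded in the nucleus. Activated T cells are known to expand their mitochondrial mass and to raise respiration as they begin to divide.

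The genes lie so close together that reads at their borders can belong to more than 1 row. Of 36 neighbouring pairs, 9 overlap, 12 touch without a base between them and 14 are separated by at most 5 bases, while the widest gap is 32 bases. The longest overlap is shown because a read inside it can belong to either mt-Atp8 or mt-Atp6. These 43 bases (chrM:7927-7969, heavy strand transcript, GENCODE annotation of GRCm38) start with the start codon of mt-Atp6 and end with the stop codon of mt-Atp8, both in capitals.
mt-Atp8 and mt-Atp6 overlap: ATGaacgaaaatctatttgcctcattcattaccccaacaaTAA

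The genes mt-Nd5 and mt-Nd6 are read from opposite strands and share their last 14 bases (chrM:13552-13565). Each transcript ends there with its own stop codon, given in capitals, and without strand information a read inside this stretch cannot be given to either gene.
mt-Nd5 end: ttaatctcgagTAA
mt-Nd6 end: ttactcgagatTAA

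Among the tRNAs, 5 had enough counts to be tested, and their sequences are shown as DNA letters with the anticodon in capitals, because the tRNA results below rest on them. Both leucine tRNAs, mt-Tl1 and mt-Tl2, come from the heavy strand, and the asparagine, cysteine and proline tRNAs (mt-Tn, mt-Tc and mt-Tp) come from the light strand. They are between 66 and 75 bases long.
mt-Tl1: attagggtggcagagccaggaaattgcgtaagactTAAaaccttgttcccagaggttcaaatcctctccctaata
mt-Tl2: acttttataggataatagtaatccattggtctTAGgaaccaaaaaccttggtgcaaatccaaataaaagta
mt-Tn: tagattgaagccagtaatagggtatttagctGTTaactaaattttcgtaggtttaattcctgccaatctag
mt-Tc: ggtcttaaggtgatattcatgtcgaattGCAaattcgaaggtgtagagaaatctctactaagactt
mt-Tp: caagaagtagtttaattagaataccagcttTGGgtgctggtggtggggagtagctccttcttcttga

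Several mRNAs also have a near-identical nuclear copy. A block of annotated pseudogenes on chromosome 1 (chr1:24611535-24616197) holds 7 genes that match 7 mitochondrial mRNAs at 99% identity or more, namely mt-Co1, mt-Co2, mt-Co3, mt-Atp6, mt-Nd3, mt-Nd4 and mt-Nd4l. For mt-Co2, mt-Co3, mt-Nd3 and mt-Nd4l, the rows of member and copy carried nearly the same counts. For mt-Co2, the copy Gm28661 had 222490 counts over the Mock libraries and 9463 over the GC7 libraries, and its count differed from that of mt-Co2 by at most 2.46% in any library. The differences were at most 1.21% for mt-Co3 and Gm28437, 1.83% for mt-Nd3 and Gm28438 and 2.01% for mt-Nd4l and Gm10222. In these 4 pairs the gap never exceeded 0.977 of the SD that separate counting of 2 sets of reads would give. The other 3 pairs differed more: mt-Co1 had 4.05 times the counts of Gm29216, aligned over 483 of its 1545 bases, mt-Nd4 had 2.07 times those of Gm28439, aligned over 876 of its 1378 bases, and mt-Atp6 had 0.761 times those of Gm10925. The first 30 bases of mt-Nd3 and its copy are shown because they hold the only base, in capitals, that differs over the 345 bases of the copy (T3C, the base of mt-Nd3 first, counted from its start).
mt-Nd3: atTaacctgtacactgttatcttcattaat
Gm28438: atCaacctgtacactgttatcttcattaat

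A read that lies within such a stretch, away from the few differing bases, cannot be assigned to either genome by its sequence. Of 15 nuclear genes that matched a member at 90% identity or more, 9 had enough counts to be tested. All 9 were called lower in GC7, beside 5.31% of all genes tested. The log2 fold changes were -4.55 for Gm28661, -4.48 for Gm28437 and -1.55 for Gm28438. Gm13340 and Gm13341 had enough counts through the Mock libraries alone, with means of 6.9 and 22.1 scaled CPM there against 0.285 and 1.13 in GC7. A lower value in GC7 is thus partly built into their being tested. When the counts of the 7 copies were added to their members, an alternative chosen after the data were seen, the log2 fold change of mt-Co1 was -5.31 and that of mt-Nd3 was -1.56, against -5.27 and -1.58 without them. If reads that match both places were counted in both rows, this sum takes them in more than once, and the calls of the copies are not independent of those of the members. Of the members tested, 13 had no copy at 99% identity or more, among them mt-Nd1, mt-Nd2, mt-Nd5, mt-Nd6, mt-Cytb and both rRNAs. Copies were looked for among annotated transcripts, so unannotated nuclear sequence, such as any beside the block, was not covered.

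The libraries held between 17528776 and 25284730 counts. Cd8a, Cd8b1, Cd3e, Cd3g and Trac, markers of CD8+ T cells, summed to between 2096 and 2514 scaled CPM in Mock and to between 2155 and 2289 in GC7. Within this sum the markers moved in both directions. Cd8a was higher in GC7, with a log2 fold change of 0.48, while those of Cd8b1, Cd3e, Cd3g and Trac were -0.18, -0.23, -0.37 and -0.38. At an edgeR adjusted p under 0.01 and any size of change, 3 of the 5 were lower and 1 higher, beside 23.5% and 23.0% of all genes tested. Of the markers of other cells, 7 (Cd4, Ms4a1, Lyz2, Itgam, Adgre1, Ncr1 and Itgax) summed to between 0.612 and 0.834 in Mock and to between 0.339 and 0.996 in GC7, and Ms4a1 was at 0 in every library. These too moved in both directions, such as Itgam, from a mean of 0.257 to 0.0321, and Lyz2, from 0.0243 to 0.161. Scaled CPM stands for a gene's count as a share of its library's total, corrected with TMM factors. It is a share of the sequenced RNA, so fewer cells with a transcript and less of it per cell cannot be told apart.

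As a share of all counts, the mitochondrial genome fell from 1.94%, 1.86%, 1.83% and 1.88% in the Mock libraries to 0.203%, 0.194%, 0.225% and 0.195% in the GC7 libraries. The groups did not overlap, and the mean share was 9.19 times as high in Mock. The mRNAs took 1.71% ± 0.0451 of all counts in Mock and 0.135% ± 0.0119 in GC7 (SD, n = 4), which was 12.7 times as high in Mock. For the rRNAs the shares were 0.146% ± 0.0064 and 0.0671% ± 0.00981 (SD, n = 4), and for the tRNAs 0.0167% ± 0.00022 and 0.00193% ± 0.000129 (SD, n = 4). Among the mitochondrial counts alone, the rRNAs made up 7.6% to 8.12% in Mock and 29.0% to 38.0% in GC7. Complex IV mRNAs showed the opposite shift, from 56.8% to 58.6% of the mitochondrial counts in Mock to 16.4% to 19.0% in GC7. These shares are given without a test.

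A gene entered the test when it exceeded 3 CPM in 4 or more of the 8 libraries. The test was edgeR's quasi-likelihood F test, and a gene was called lower or higher at an adjusted p (Benjamini-Hochberg over all 11189 genes tested) under 0.01 and a change of more than 2-fold. Of all genes tested, 5.31% were called lower and 3.17% higher. Among the mitochondrial genes, 15 exceeded 3 CPM in all 8 libraries, and all 15 were called lower, with a median log2 fold change of -2.90 against 0.02 over all genes tested. The other 5 members tested, mt-Atp8 and 4 tRNAs, exceeded 3 CPM in fewer GC7 libraries, which is given beside their values. No member was called higher. In each of the 15 members over 3 CPM in all 8 libraries, every GC7 library lay below every Mock library, which was also seen in 27.5% of all genes tested. The same held in the other 5, but there the filter favoured it. For mt-Tl1 and mt-Tl2, over 3 CPM in Mock alone, the filter fixed it in advance.

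**Figure D1:**
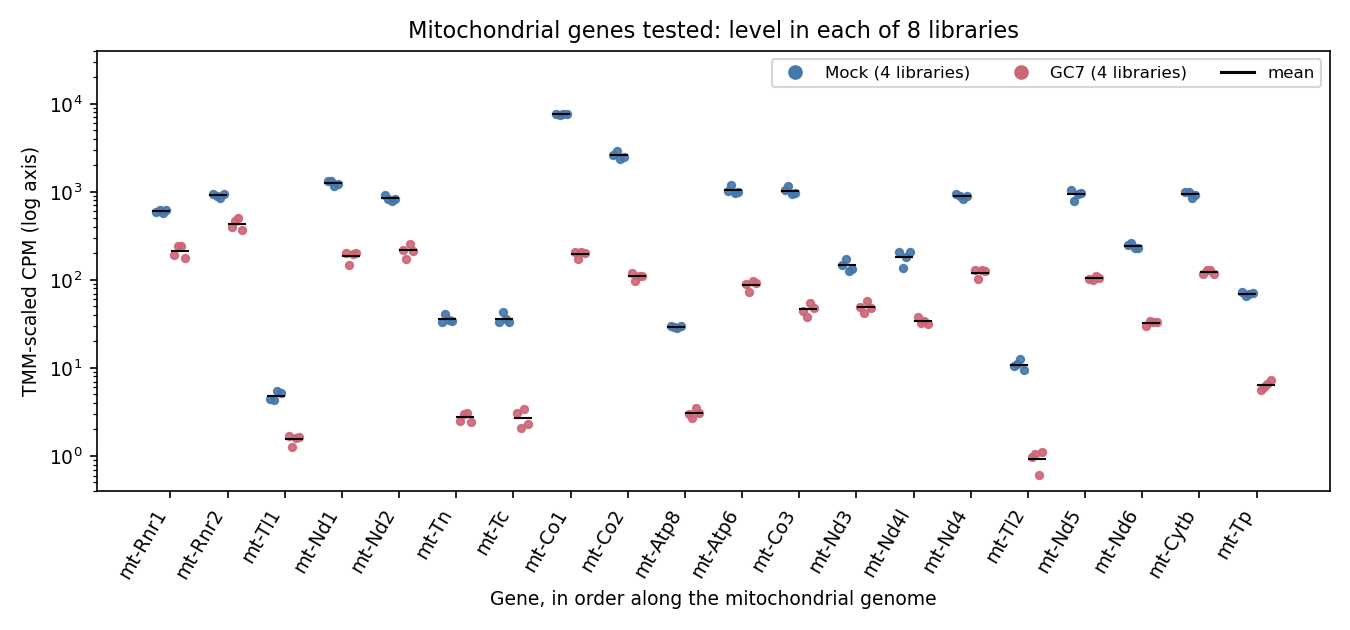
Level of the 20 mitochondrial genes tested in each library, as TMM-scaled CPM on a log axis, with genes in their order along the mitochondrial genome. Blue points are the 4 Mock libraries, red points the 4 GC7 libraries and black lines the means; mt-Co1 shows the widest gap (7578 against 196) and mt-Rnr2 the narrowest (909 against 436).

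The subunits of complex IV, cytochrome c oxidase, fell most. The catalytic subunit mt-Co1 (chrM:5328-6872), which carries the haem and copper site where oxygen is reduced, was the most abundant mitochondrial mRNA in Mock, at 7667, 7477, 7568 and 7600 scaled CPM. In GC7 it stood at 207, 171, 207 and 200. The level in GC7 was thus 2.59% of that in Mock, with a log2 fold change of -5.27 (SE 0.0935, edgeR adjusted p = 5.4e-12). The subunit mt-Co2 (chrM:7013-7696) takes electrons from cytochrome c. It had 2585, 2945, 2371 and 2491 scaled CPM in Mock and 120, 96.2, 112 and 112 in GC7. It fell 23.6-fold (log2 fold change -4.56, SE 0.102, edgeR adjusted p = 1.6e-11). The third core subunit, mt-Co3 (chrM:8607-9390), lies beside the catalytic subunit in the membrane and binds no metal. It had 1041, 1156, 947 and 980 scaled CPM in Mock and 44.7, 38.3, 54 and 48.4 in GC7. It fell 22.3-fold (log2 fold change -4.48, SE 0.115, edgeR adjusted p = 3.7e-11). All 3 mRNAs share sequence with a nuclear copy, as given above.

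The 2 subunits of complex V, the ATP synthase, fell by less than those of complex IV. The mRNA of mt-Atp6 (chrM:7927-8607), whose protein forms the proton path of the membrane part, had 1013, 1186, 975 and 1006 scaled CPM in Mock. In GC7 the values were 90.5, 73.1, 97.6 and 92. This was an 11.8-fold fall (log2 fold change -3.57, SE 0.104, edgeR adjusted p = 9.1e-11). The small accessory subunit mt-Atp8 (chrM:7766-7969) had 30.3, 28.8, 28.6 and 29.7 scaled CPM in Mock and 3, 2.67, 3.55 and 3.07 in GC7, a 9.57-fold fall (log2 fold change -3.26, SE 0.0957, edgeR adjusted p = 9.1e-11). It exceeded 3 CPM in 3 of the 4 GC7 libraries. The counts of mt-Atp6 were 0.761 times those of its nuclear copy Gm10925, whereas the other members matched over their whole length had ratios of 0.988 to 1.01. The gene mt-Atp6 overlaps mt-Atp8 by 43 bases and mt-Co3 by 1 base, and the part of these overlaps in its lower count was not tested.

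The only mitochondrial subunit of complex III, mt-Cytb (chrM:14145-15288), holds both quinone sites of the complex and has no nuclear copy at 99% identity or more. Its scaled CPM was 995, 984, 856 and 909 in Mock and 116, 128, 128 and 116 in GC7. It fell 7.67-fold (log2 fold change -2.94, SE 0.076, edgeR adjusted p = 3.7e-11).

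The 7 subunits of complex I, NADH:ubiquinone oxidoreductase, were all called lower, over a range from 2.98-fold to 8.92-fold. The subunit mt-Nd1 (chrM:2751-3707), which helps to form the quinone site, had 1313, 1337, 1163 and 1240 scaled CPM in Mock and 204, 146, 197 and 201 in GC7 (log2 fold change -2.75, SE 0.108, edgeR adjusted p = 1.2e-09). The lowest GC7 value, that of replicate 2, stood apart from the other 3. The proton-pumping subunits of the membrane arm did not move by the same amount. The mRNA of mt-Nd5 (chrM:11742-13565) had 1047, 777, 936 and 975 scaled CPM in Mock and 102, 100, 111 and 106 in GC7, a log2 fold change of -3.16 (SE 0.0945, edgeR adjusted p = 1.1e-10). For mt-Nd4 (chrM:10167-11544) the levels were 887 ± 50.4 and 121 ± 13 (SD, n = 4), a log2 fold change of -2.88 (SE 0.0892, edgeR adjusted p = 1.5e-10). The smallest fall of these was that of mt-Nd2 (chrM:3914-4951), with 925, 838, 780 and 837 in Mock, 218, 173, 257 and 215 in GC7 and a log2 fold change of -1.97 (SE 0.108, edgeR adjusted p = 2.3e-08).

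The 3 small complex I subunits lie in the membrane arm near the quinone site or the proton channels. The mRNA of mt-Nd3 (chrM:9459-9806) had the smallest fall of all 13 mRNAs, from 149, 174, 127 and 133 scaled CPM in Mock to 48.8, 42.2, 57.2 and 47.5 in GC7 (log2 fold change -1.58, SE 0.111, edgeR adjusted p = 1.9e-07). For mt-Nd4l (chrM:9877-10173) the Mock libraries were uneven, at 209, 136, 183 and 207, while GC7 held 37.5, 32.2, 34 and 31.7 (log2 fold change -2.44, SE 0.126, edgeR adjusted p = 1.4e-08). The light-strand mRNA mt-Nd6 (chrM:13552-14070) had 246, 262, 233 and 232 in Mock and 30.2, 34.1, 33 and 33.3 in GC7 (log2 fold change -2.90, SE 0.0687, edgeR adjusted p = 2.6e-11). For each complex I mRNA, every GC7 library lay below every Mock library, which was also seen in 27.5% of all genes tested.

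Both rRNAs had smaller falls than the 13 mRNAs, although that of mt-Rnr1 was within the SE of that of mt-Nd3. The small-subunit rRNA mt-Rnr1 (chrM:70-1024) went from 599 ± 27.4 to 213 ± 32.9 scaled CPM (SD, n = 4), a 2.81-fold fall (log2 fold change -1.49, SE 0.0996, edgeR adjusted p = 1.2e-07). The large-subunit rRNA mt-Rnr2 (chrM:1094-2675) had 947, 897, 842 and 949 in Mock and 395, 469, 507 and 373 in GC7, so that the GC7 level was 48% of that in Mock. Its log2 fold change of -1.06 (SE 0.0964, edgeR adjusted p = 1.7e-06) lay at the 2-fold limit, and it was -0.97 with library totals as the scale and -0.99 without replicate 4 of GC7, where it was no longer called. Whether polyadenylated RNA was selected before sequencing is not given in the sources used here.

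**Figure D2:**
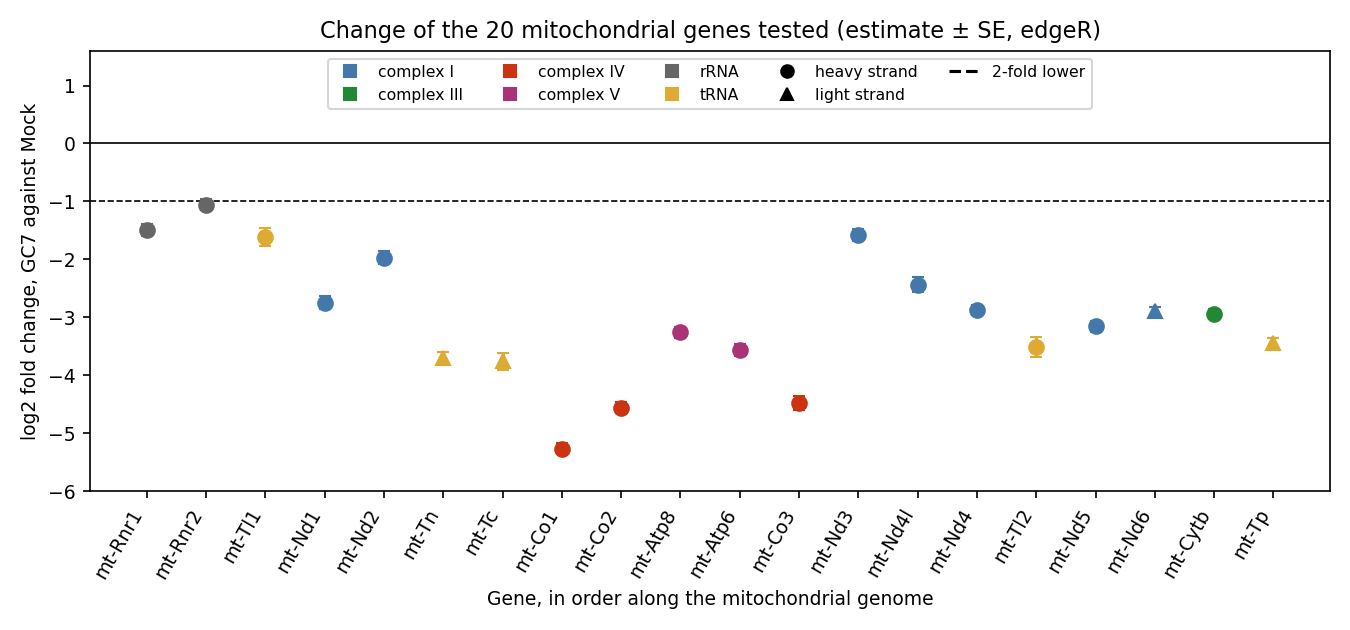
Log2 fold change (GC7 against Mock, edgeR estimate ± SE over 4 libraries a group) of the 20 mitochondrial genes tested, in their order along the genome; colours give the complex or RNA class, circles the heavy and triangles the light strand, and the dashed line a 2-fold fall. The 3 complex IV mRNAs lie lowest, between -5.27 and -4.48, and the rRNAs highest, at -1.49 and -1.06.

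All tRNAs together had 3350 to 4240 counts in a Mock library and 359 to 452 in a GC7 library, and 5 tRNAs were tested. Whether a read on a tRNA gene came from the excised tRNA or from an uncut precursor cannot be told from these counts. The untested tRNAs took 8.19% to 9.58% of the tRNA counts in Mock and 20.9% to 25.9% in GC7. The filter that made this split favours tRNAs high in Mock, so a smaller untested share in Mock is partly built into it. Of those tested, only mt-Tp exceeded 3 CPM in all 8 libraries. The proline tRNA mt-Tp (chrM:15356-15422) had 1432, 1536, 1505 and 1425 counts in Mock and 115, 135, 117 and 176 in GC7. It fell 10.9-fold (log2 fold change -3.45, SE 0.089, edgeR adjusted p = 3.7e-11). The asparagine tRNA mt-Tn (chrM:5089-5159) and the cysteine tRNA mt-Tc (chrM:5192-5257), 32 bases apart on the light strand, each exceeded 3 CPM in all 4 Mock and in 2 GC7 libraries. Their counts were 656, 959, 751 and 683 in Mock against 51, 67, 55 and 58 in GC7 for mt-Tn, and 651, 1026, 774 and 663 against 63, 46, 62 and 55 for mt-Tc. The log2 fold changes were close, at -3.71 (SE 0.112, edgeR adjusted p = 1.1e-10) and -3.76 (SE 0.15, edgeR adjusted p = 1.4e-09).

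The leucine tRNAs mt-Tl1 and mt-Tl2 passed the filter through the Mock libraries alone, so that a lower value in GC7 is partly built into their being tested. The counts of mt-Tl1 (chrM:2676-2750) were 86, 101, 118 and 103 in Mock and 35, 28, 29 and 40 in GC7, a log2 fold change of -1.62 (SE 0.156, edgeR adjusted p = 2.9e-06). This tRNA touches mt-Rnr2 on one side and mt-Nd1 on the other. For mt-Tl2 (chrM:11671-11741), which touches mt-Nd5, the counts were 204, 263, 271 and 188 against 20, 23, 11 and 27, with a log2 fold change of -3.51 (SE 0.174, edgeR adjusted p = 9.1e-09).

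The other 17 tRNAs stayed under the filter, and 9 of them had fewer than 50 counts over all 8 libraries. The lysine tRNA mt-Tk had the most, with 54, 66, 49 and 52 counts in Mock and 13, 11, 17 and 5 in GC7. The serine tRNA mt-Ts2 had 58, 65, 53 and 52 counts in Mock and 4, 10, 10 and 12 in GC7. For the tryptophan tRNA mt-Tw the counts were 47, 59, 42 and 50 against 14, 14, 8 and 15. In scaled CPM, every GC7 library lay below every Mock library in these 3. The same held for mt-Ty, mt-Th, mt-Te, mt-Tg, mt-Tt, mt-Tr, mt-Ta and mt-Ts1, and for 27.5% of all genes that passed the filter. The light-strand tyrosine tRNA mt-Ty had a smaller gap, with 42, 33, 38 and 53 counts in Mock and 17, 25, 15 and 25 in GC7. The histidine tRNA mt-Th had 23, 45, 37 and 37 against 3, 5, 9 and 3.

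When all 28350 genes with a count were fitted with edgeR without the filter, 29 of 36 members were called lower and none higher, beside 4.19% of all genes called lower. None of the members with a positive log2 fold change in that fit had an unadjusted p under 0.05. Of the 17 tRNAs, 9 were called lower in it: the 8 with 50 counts or more and mt-Tr, the arginine tRNA, which had 26 counts over the Mock libraries and 4 over the GC7 libraries. Their log2 fold changes without the filter ran from -1.03 for mt-Ty (SE 0.261, edgeR adjusted p = 4.7e-04) to -2.78 for mt-Th (SE 0.367, edgeR adjusted p = 5.9e-13).

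A few tRNAs did not have lower counts in GC7. The methionine tRNA mt-Tm had 17 counts over the Mock libraries (exact 95% Poisson interval 9.9 to 27.2) and 29 over the GC7 libraries (19.4 to 41.6). The isoleucine tRNA mt-Ti had 13 (6.92 to 22.2) and 25 (16.2 to 36.9), and the glutamine tRNA mt-Tq 12 (6.2 to 21) and 19 (11.4 to 29.7). Their intervals, which cover counting error only, overlap between the groups, and none of the 3 was called in the fit without the filter (edgeR adjusted p = 0.36, 0.31 and 0.48). They lie side by side between mt-Nd1 and mt-Nd2, and mt-Ti overlaps mt-Nd1 by 2 bases and mt-Tq by 3 bases. With 10 counts in Mock (exact 95% Poisson interval 4.8 to 18.4) and 0 in GC7 (0 to 3.69), mt-Ts1 was not called either (edgeR adjusted p = 0.013). The phenylalanine tRNA mt-Tf had 0 counts in every library, so no difference was detectable, and mt-Ta, mt-Tv and mt-Td had 22, 22 and 9 counts in all.

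**Figure D3:**
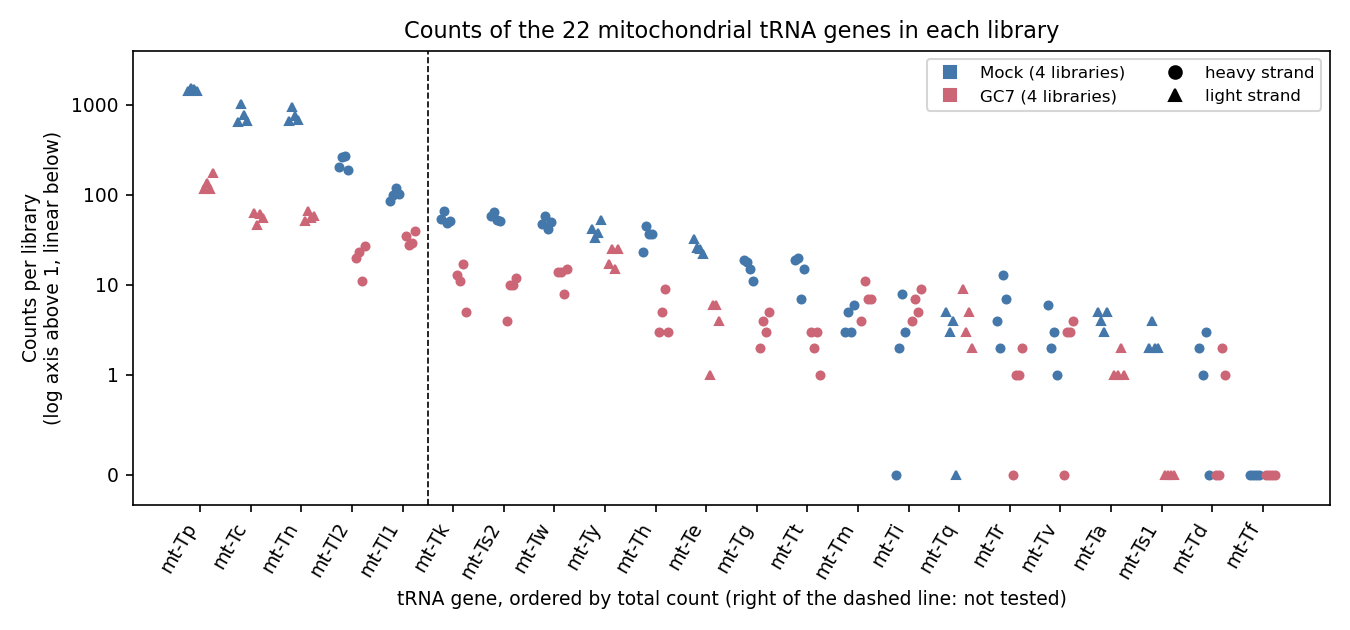
Counts of the 22 mitochondrial tRNA genes in each library (log axis above 1, linear below), ordered by total count; blue is Mock, red is GC7, circles are heavy-strand and triangles light-strand tRNAs. The 5 tRNAs left of the dashed line were tested, and right of it the counts fall to 0 in every library for mt-Tf.

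By strand, the 9 light-strand genes took 1.94% to 2.08% of the mitochondrial counts in Mock and 2.17% to 2.52% in GC7. The share of each strand in all counts was 9.22 times as high in Mock for the heavy strand and 7.92 times for the light strand. The log2 fold changes overlapped between the strands: the 12 heavy-strand mRNAs ran from -5.27 to -1.58, and mt-Nd6, the light-strand mRNA, stood at -2.90. The light-strand tRNAs tested lay between -3.76 and -3.45, while the heavy-strand tRNAs stood at -3.51 and -1.62. Whether the libraries kept strand is not given in the sources used here. If they did not, a read in a stretch annotated on both strands cannot be placed. A read on any other gene could then also come from the precursor of the opposite strand, so these values are by annotated strand only. Along the heavy strand, the log2 fold change of the 12 mRNAs had a Spearman correlation of 0.15 with the start position. Over the 13 mRNAs it was -0.55 with the Mock level per kb, although the Mock level is itself a term of the fold change. Both correlations are descriptions over genes of the same libraries.

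The ratio of counts of each gene to those of mt-Nd1 was compared within libraries, since such ratios do not depend on the library's scale. Of 21 ratios, 19 to mt-Nd1 and those of mt-Nd6 to mt-Nd5 and of mt-Rnr1 to mt-Rnr2, 15 differed between the groups at the smallest p that 4 against 4 libraries allow (two-sided exact permutation test, p = 0.0286, adjusted over 21 ratios 0.04). Of the ratios to mt-Nd1, 9 were lower in GC7 and 5 were higher among these. The ratio of mt-Co1 to mt-Nd1 was 6.01 in Mock and 1.05 in GC7, lower in 4 of 4 GC7 libraries than in any Mock library (log2 difference -2.51, SE 0.07, exact permutation p = 0.0286). For mt-Co2 the ratio went from 2.05 to 0.591 and for mt-Co3 from 0.815 to 0.248. The ATP synthase mRNAs moved less, with log2 differences of -0.80 for mt-Atp6 and -0.49 for mt-Atp8. Ratios of mt-Tn, mt-Tc, mt-Tl2 and mt-Tp to mt-Nd1 were lower by between 0.69 and 0.99 on the log2 scale, and that of mt-Tl2 did not pass with 5 added to each count (adjusted p = 0.126). Of the genes with a lower ratio, mt-Atp8, mt-Tn, mt-Tc and mt-Tl2 exceeded 3 CPM in fewer GC7 than Mock libraries. The filter favoured a lower ratio in GC7 for them, so their part in the counts of 15 and 9 is partly built in.

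Ratios that were higher in GC7 were those of mt-Rnr2 (from 0.72 to 2.33), mt-Rnr1 (from 0.475 to 1.14), mt-Nd3 (from 0.115 to 0.262), mt-Nd2 (from 0.669 to 1.15) and mt-Tl1 (from 0.00382 to 0.00848). The ratio of mt-Rnr1 to mt-Rnr2 was lower in GC7, at -1.04, -0.97, -1.06 and -1.07 on the log2 scale against -0.70, -0.51, -0.57 and -0.63 in Mock (log2 difference -0.43, SE 0.05, exact permutation p = 0.0286). For the other complex I mRNAs and mt-Cytb, no difference from mt-Nd1 passed the test. The log2 differences were -0.38 for mt-Nd5 (SE 0.15, exact permutation p = 0.0571), -0.12 for mt-Nd4 (SE 0.05, p = 0.0571 by exact permutation), 0.34 for mt-Nd4l (SE 0.2, exact permutation p = 0.0857), -0.13 for mt-Nd6 (SE 0.15, exact permutation p = 0.429) and -0.17 for mt-Cytb (SE 0.15, exact permutation p = 0.314). The ratio of mt-Nd6 to its opposite-strand neighbour mt-Nd5 had a log2 difference of 0.25 (SE 0.13, exact permutation p = 0.114), and of 0.38 without Mock replicate 2. All 19 ratios share mt-Nd1, whose GC7 replicate 2 was low. Without that library the log2 differences were -0.27 for mt-Nd6 and -0.31 for mt-Cytb, and without GC7 replicate 1 they were -0.05 and -0.10. That of mt-Cytb was -0.11 without GC7 replicate 4. For mt-Nd4l the difference was 0.18 without Mock replicate 2.

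**Figure D4:**
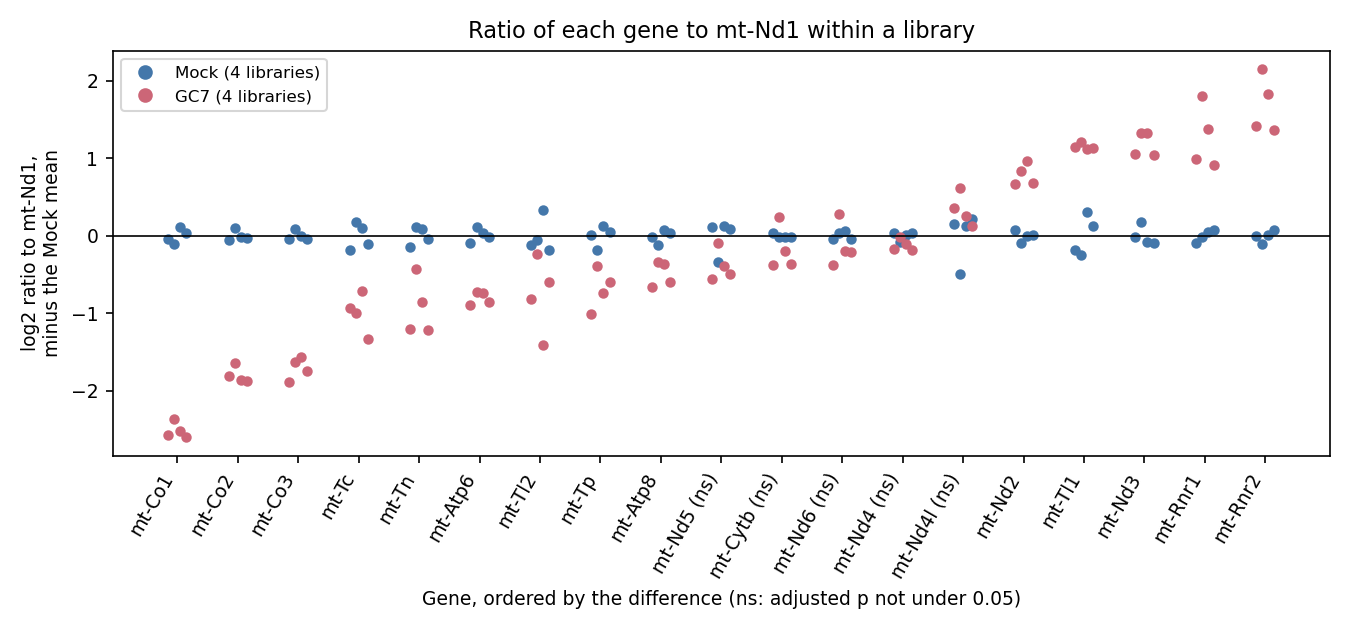
Log2 ratio of each of 19 mitochondrial genes to mt-Nd1 within a library, minus the mean of the Mock libraries, ordered by the difference between the groups; blue points are Mock and red points GC7 libraries. Complex IV mRNAs lie lowest in GC7 (differences of -2.51, -1.80 and -1.72), and mt-Rnr2 lies highest (1.70).

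Per length, the order of the mRNAs and rRNAs changed between the groups. In Mock, mt-Co1 led with 4905 ± 51.1 scaled CPM per kb, followed by mt-Co2 with 3798 ± 362 and mt-Atp6 with 1534 ± 140 (SD, n = 4), and these 3 did not overlap. The next pair, mt-Nd1 (1320) and mt-Co3 (1315), overlapped, as did mt-Cytb (818) and mt-Nd2 (814) and each neighbouring pair in the run from mt-Nd4 (643) through mt-Rnr1, mt-Nd4l, mt-Rnr2, mt-Nd5 and mt-Nd6 to mt-Nd3 (419). At the bottom, mt-Atp8 stood apart at 144. This gene is 204 bases long and shares 43 of them with mt-Atp6, and the part of this in its low value was not tested. In GC7, mt-Rnr2 came first with 276 ± 39.4 and mt-Rnr1 next with 223 ± 34.4 (SD, n = 4). Each neighbouring pair overlapped from there down to mt-Cytb (107), a run that holds mt-Nd2, mt-Nd1, mt-Co2, mt-Nd3, mt-Atp6, mt-Co1 and mt-Nd4l. The mRNA of mt-Co1 was eighth in that order, at 127 ± 11.1 scaled CPM per kb (SD, n = 4). Between the highest and the lowest mRNA, the latter being mt-Atp8 in each group, the span narrowed from 34.1 times in Mock to 13.8 times in GC7.

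Nuclear genes for the same complexes were set beside the mitochondrial ones. Of 77 nuclear subunits of complexes I to V, all tested, 1 was called lower and none higher, beside 5.31% and 3.17% of all genes tested. Their median log2 fold change was -0.07. The gene called was Ndufv3, an accessory subunit of complex I, at 145, 192, 147 and 148 scaled CPM in Mock and 74.1, 78.9, 81.1 and 79.3 in GC7 (log2 fold change -1.01, SE 0.0895, edgeR adjusted p = 1.4e-06). It was no longer called with library totals as the scale (-0.92), without Mock replicate 2 (-0.90) or without GC7 replicate 1 (-0.99). At an adjusted p under 0.01 and any size of change, 14 nuclear subunits were lower and 5 higher, beside 23.5% and 23.0% of all genes tested. For complex IV, whose mitochondrial mRNAs fell most, the 11 nuclear subunits ran from -0.42 to 0.30. Among them, Cox4i1 had a log2 fold change of 0.08 (edgeR adjusted p = 0.48) and Cox5b one of -0.14 (edgeR adjusted p = 0.25). The only one at an adjusted p under 0.01 was Cox6a1, at -0.42 (edgeR adjusted p = 0.0018). The 4 subunits of complex II, which has no mitochondrially encoded part, ran from -0.42 to -0.05, and 3 of them were lower at an adjusted p under 0.01. Of 8 genes of the outer membrane, import and matrix, none was called, beside 5.31% of all genes tested called lower and 3.17% called higher. Tomm20, an import receptor, had a log2 fold change of 0.54, Vdac1, the outer membrane channel, one of -0.45, and Cs, citrate synthase, one of -0.04.

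The nuclear genes that copy, transcribe and process the mitochondrial genome were not called in either direction, beside 5.31% of all genes tested called lower and 3.17% called higher. Of the 40 listed, 38 were tested by edgeR, with a median log2 fold change of 0.13. DESeq2 called none of them, beside 602 genes called lower and 353 called higher in all. At an unadjusted p under 0.05, 5 were lower and 16 higher, beside 30.9% and 32.7% of all genes tested. At an adjusted p under 0.01 and any size, 3 were lower and 10 higher, beside 23.5% and 23.0%. The mitochondrial RNA polymerase Polrmt had 22.9 ± 1.51 scaled CPM in Mock and 29.9 ± 3.89 in GC7 (SD, n = 4), a log2 fold change of 0.39 (SE 0.0964, edgeR adjusted p = 0.0041). The elongation factor Tefm stood at 0.46 (edgeR adjusted p = 0.0056). Tfam, which packages the DNA and opens its promoters, stood at -0.04 (SE 0.0727, edgeR adjusted p = 0.65), and the initiation factor Tfb2m at 0.13 (edgeR adjusted p = 0.18).

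Lrpprc, which keeps mitochondrial mRNAs stable, had a log2 fold change of 0.05 (SE 0.0852, edgeR adjusted p = 0.6). Its partner Slirp, at 3.02 ± 0.0914 scaled CPM in Mock and 2.73 ± 0.45 in GC7 (SD, n = 4), did not pass the filter, and neither did Fastkd5. The poly(A) polymerase Mtpap stood at 0.24 (edgeR adjusted p = 0.012). The RNA-binding protein Fastkd1 had the largest change of the list, from 5.23 ± 0.908 to 10.2 ± 1.66 (SD, n = 4), a log2 fold change of 0.98 (SE 0.152, edgeR adjusted p = 1.5e-04) just inside the 2-fold limit. Of the replication genes, the DNA polymerase Polg was lower, from 43.2 ± 3.54 to 30.6 ± 3.57 scaled CPM (SD, n = 4; log2 fold change -0.50, SE 0.0909, edgeR adjusted p = 4.8e-04), and the helicase Twnk stood at 0.17 (edgeR adjusted p = 0.17). Levels of mitochondrial DNA were not measured in these libraries.

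**Figure D5:**
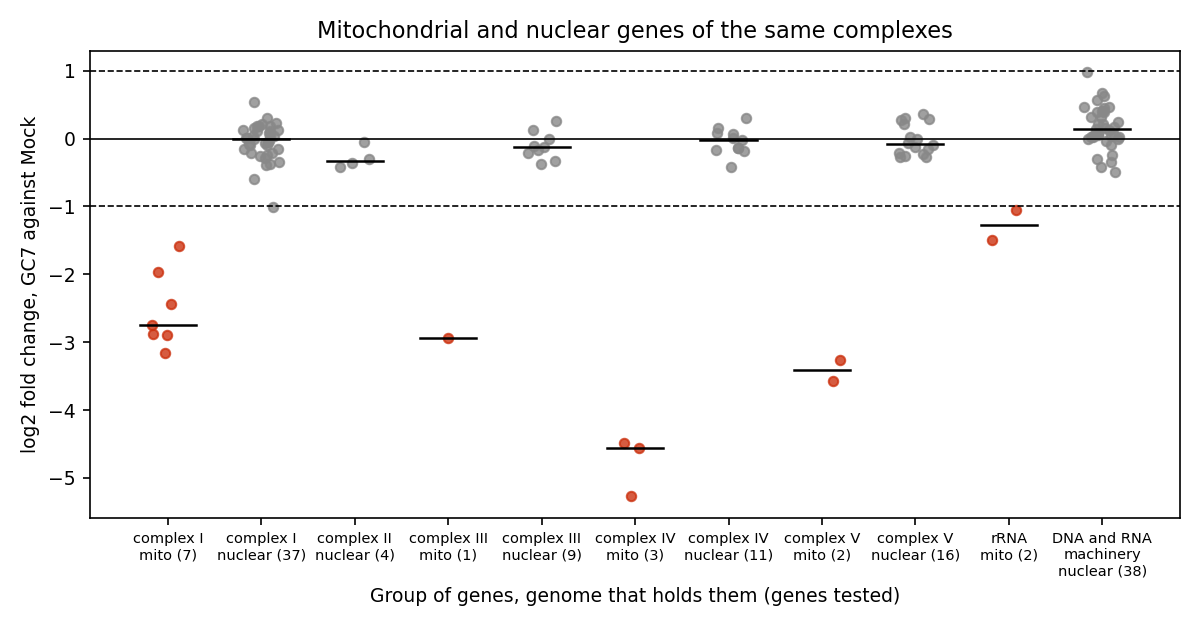
Log2 fold change (GC7 against Mock) of genes of the respiratory chain complexes by the genome that encodes them, with the mitochondrial rRNAs and the nuclear genes for mitochondrial DNA and RNA; each point is a gene, black lines are medians and dashed lines mark 2-fold changes. Mitochondrial genes (red) lie between -5.27 and -1.06, and nuclear genes (grey) between -1.01 and 0.98.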

How the data were processed

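The study describes the sequencing of its 4 Mock and 4 GC7 libraries as mRNA-seq. Groups and replicate numbers came from the sample labels. The authors deposited raw counts per Ensembl gene for each library, made with Cutadapt, STAR (GRCm38) and featureCounts. The strand setting and the treatment of reads with several matching positions are not given in the sources used here.

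Genes over 3 CPM in 4 or more libraries (11189) were fitted with edgeR 4.0.16, with TMM factors, the group as the only term and Benjamini-Hochberg adjustment over all of them. A call needs an adjusted p under 0.01 and more than a 2-fold change. Ratios are log2 values of counts with 0.5 added. Log2 fold changes come from the edgeR fit, and their SEs are their absolute value divided by the square root of the F statistic. Ratios were compared with two-sided exact permutation tests (scipy 1.17.1). Nuclear copies were found with BLAST 2.17.0 among GENCODE M21 transcripts (90% identity or more over at least 200 bases, or 50 for tRNAs), from which all sequences were read. Alternatives were RLE factors, library totals, TMM factors without mitochondrial genes, DESeq2 1.42.0, no filter, filterByExpr, a replicate block, each library left out in turn and, for ratios, 5 added to counts. The edgeR and DESeq2 fits were tested on simulated data. These had fewer changed genes and smaller changes than the largest seen here. They held only genes that passed the filter, so they do not cover the fit of low counts.

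The 13 mRNAs, the 2 rRNAs, the tested tRNAs and the 5 other tRNAs with the most counts are given in full. Of the nuclear lists, Polrmt, Tfam, Tfb2m, Tefm, Lrpprc, Slirp, Mtpap, Polg and Twnk are named, with up to 3 called genes a direction in each list. Further names were picked with their values in view. The members and lists were chosen with earlier results of these data known. 1 listed gene is not reported here. The study calls its replicates biological.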

Additional observations from a re-analysis of the deposited data

Results flagged for a closer look

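In 88 groups of 4 libraries (levels, class shares and ratios), 6 held a library whose gap to the nearest of the others, over the whole range, exceeded Dixon's 95% critical value for 4 samples. Chance alone flags about 1 in 20 such groups, or 4.4 of 88.

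In GC7, replicate 2 was lowest for mt-Nd1, at 146 scaled CPM against 197 to 204 in the other 3 libraries (gap over range 0.886), and for mt-Nd4, at 101 against 125 to 128 (0.879). In Mock, replicate 2 was lowest for the log2 ratio of mt-Nd4l to mt-Nd1, at -3.30 against -2.67 to -2.58 (0.873), and of mt-Nd5 to mt-Nd1, at -0.78 against -0.35 to -0.31 (0.925). It was highest for the log2 ratio of mt-Nd6 to mt-Nd5, at -1.57 against -2.09 to -2.01 (0.836). Without it, the log2 difference between the groups was 0.18 for mt-Nd4l to mt-Nd1, against 0.34 with it, -0.50 for mt-Nd5 to mt-Nd1, against -0.38, and 0.38 for mt-Nd6 to mt-Nd5, against 0.25. Mock replicate 1 was highest for the log2 ratio of mt-Cytb to mt-Nd1, at -0.40 against -0.45 to -0.44 (0.842).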

How the results depend on the processing

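Over 320 values, the log2 fold changes of the 20 members kept their direction, moved by at most 0.14, and 318 stayed on the same side of the call, the 2 exceptions being mt-Rnr2 with library totals (-0.97) and without GC7 replicate 4 (-0.99). Without the filter and with filterByExpr, 1189 and 1007 genes were called lower in all, against 594, and 773 and 605 higher, against 355. Without the filter, 9 of the 17 untested tRNAs were called lower. With library totals, 1 machinery gene (Fastkd1, 1.07) was called higher and 0 nuclear subunits lower (Ndufv3, -0.92). Leaving out each library in turn gave 0 to 1 machinery genes higher (Fastkd1 without Mock replicate 1, 1.09, or GC7 replicate 3, 1.07) and 0 to 1 nuclear subunits lower (Ndufv3 lost its call without Mock replicate 2, -0.90, or GC7 replicate 1, -0.99). Whether the replicate numbers pair the libraries is not given in the sources used here. Same-numbered libraries deviated together with correlations of 0.272, -0.116, 0.202 and -0.183, and differently numbered ones with -0.31 to 0.416. So few libraries cannot settle the question. With the replicate block, 20 members were called lower and 596 genes in all. With exact sign flips over the replicate block, or exact permutation with any library left out, 0 of 21 ratios passed, but neither design can reach p = 0.05 (the smallest p with a library left out is 0.0571), so they say nothing about stability.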
